A study of Rattus norvegicus with 40 samples.

Results

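Npc1, which encodes the protein that carries cholesterol out of lysosomes, rose in the hippocampus of rats exposed to lead during development, and it was the only 1 of 33 measured genes of cholesterol synthesis and lipid transport called at an adjusted p below 0.05 against controls, where 0.38% of all probe sets were. The mean of the 8 exposed groups was higher than the mean of the 2 control groups by 0.20 on the log2 scale (SE 0.0355, 32 exposed and 8 control arrays), a ratio of 1.15. All 11 measured markers of oligodendrocytes and myelin had a higher exposed mean too, 5 of them called. With their mean as a covariate, chosen after seeing the data, the Npc1 difference was 0.08 (SE 0.0303, limma adjusted p = 0.531). Of the 8 exposed groups, 7 also lay in another range of sample title numbers than the controls. The enzymes that build cholesterol, from Acat2 at the entry of the pathway to Dhcr7 at its end, gave no call. Nor did the regulators Srebf2, Scap, Insig1 and Insig2, the fatty acid enzymes or the other 7 genes of cholesterol transport and removal.

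The 35 listed genes were chosen for their function, with earlier results of these data known. A gene counted as measured where a probe set of the array carried its symbol and no other, and where it had several such probe sets the one of highest mean signal was taken. Of the 35, 33 were measured, among 14506 genes measured in all. Hmgcs1, an early synthesis enzyme, and Srebf1, a regulator best known for fatty acid genes, had no probe set of their own and were not analysed here. Insig1 had 2 probe sets. The 33 fell into 6 enzymes of the mevalonate branch, 11 of the sterol branch, 4 regulators, 4 fatty acid enzymes and 8 genes of transport and removal.

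Hippocampi were taken at postnatal day 55 and their RNA was measured in 10 groups of 4 arrays, given as sex, lead acetate dose in chow and exposure window. The male and female control groups ate control chow without added lead. In each sex, 4 exposed groups had 250 or 750 ppm. Perinatal exposure began through the dams' chow 10 days before breeding and ended at weaning, and postnatal exposure ran from birth to postnatal day 45. All animals were on control chow before they were killed. The labels name neither the rat strain nor the litters, so p-values measure only the spread between these samples, which may share litters.

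The labels of 3 control arrays went against the X-linked transcript Eif2s3, which read at most 11.42 in exposed males and at least 11.62 in exposed females. It read 11.69 on male control replicate 4, and 11.28 and 11.30 on replicates 1 and 3 of the female controls. The 3 arrays whose signal had the lowest slope on the mean over all arrays were named flattened, a number fixed by the rule. Bright probe sets read dimmer and dim ones brighter on them. They were from perinatally exposed males, replicates 1 and 3 at 250 ppm and replicate 1 at 750 ppm. Their slopes minus 1 were -0.019, -0.0314 and -0.0325, beside -0.0132 to 0.018 on the other arrays. Numbers in the sample titles fell into 3 ranges, and 1970 to 1981 held both control groups but, of the exposed groups, only the females given 750 ppm perinatally. For the other 7 exposed groups, exposure and title range cannot be told apart. The spread within a group, over all 29214 probe sets, had a median SD of 0.129 log2. The number of arrays limits the precision.

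Cholesterol is built from acetyl units through mevalonate, isoprenoid units and squalene, which is closed to lanosterol and trimmed to cholesterol. When sterols run low, SCAP escorts SREBP proteins out of the endoplasmic reticulum so that they can be cut and switch on the synthesis genes, and INSIG proteins hold them back when sterols are plentiful. The brain makes its own cholesterol behind the blood-brain barrier, much of it for myelin, the membrane that oligodendrocytes wrap around axons. Cholesterol taken up with lipoproteins leaves the lysosome through NPC2 and NPC1, moves between cells through ABCA1, ABCG1 and apolipoproteins, is stored as esters by SOAT1 and leaves neurons after hydroxylation by CYP46A1.

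The DNA just before the gene starts is shown for 4 genes, since Npc1 was the gene that rose, Idi1 and Sc5d covaried most closely and Fdps had the lowest p of the enzymes in a single exposure. The stretches are the 250 bases before the annotated start (197 for Npc1, up to the outermost start of the gene), from RefSeq on build GRCr8, all from genes on the minus strand and written 5′ to 3′ in the direction of the gene. Npc1 lies at chr18:3699854-3700050, Idi1 at chr17:66547525-66547774, Sc5d at chr8:51538278-51538527 and Fdps at chr2:176804817-176805066. Capitals mark CCAAT, the box bound by the factor NF-Y, on either strand (ATTGG on the printed strand).
Npc1: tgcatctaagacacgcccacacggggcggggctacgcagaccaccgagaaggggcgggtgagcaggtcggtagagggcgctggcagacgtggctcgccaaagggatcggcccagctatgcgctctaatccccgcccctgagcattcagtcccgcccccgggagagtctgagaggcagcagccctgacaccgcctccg
Idi1: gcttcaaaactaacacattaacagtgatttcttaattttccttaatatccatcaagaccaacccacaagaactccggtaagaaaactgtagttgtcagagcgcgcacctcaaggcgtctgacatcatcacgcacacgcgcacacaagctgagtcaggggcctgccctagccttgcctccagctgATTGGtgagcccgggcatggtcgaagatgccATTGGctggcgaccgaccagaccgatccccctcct
Sc5d: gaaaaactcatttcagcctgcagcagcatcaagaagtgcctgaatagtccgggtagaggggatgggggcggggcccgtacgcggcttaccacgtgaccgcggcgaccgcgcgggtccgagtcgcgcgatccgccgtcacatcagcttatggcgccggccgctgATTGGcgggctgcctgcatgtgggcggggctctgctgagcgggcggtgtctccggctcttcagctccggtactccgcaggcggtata
Fdps: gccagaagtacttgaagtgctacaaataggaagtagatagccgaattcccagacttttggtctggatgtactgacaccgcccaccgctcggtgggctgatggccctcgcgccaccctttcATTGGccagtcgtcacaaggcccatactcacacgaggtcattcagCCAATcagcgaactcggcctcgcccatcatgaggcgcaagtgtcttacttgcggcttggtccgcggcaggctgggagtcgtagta
The printed stretches of Idi1 and Fdps hold 2 such boxes each, that of Sc5d holds 1, and that of Npc1 holds none. Over windows of 250 bases before to 50 after the start, 26 of the 33 genes had an entry, and 18 of them (69.2%) held CCAAT on either strand, against 37.5% of all 33469 promoters. The share was 11 of 14 in the mevalonate and sterol branches and 7 of 12 in the other roles. GGGCGG, the GC box, was in 22 of the 26 (84.6%), Npc1 included, against 33.1% of all. CACGTG, an E-box, was in 4 (Abca1, Insig1, Sc5d and Scap, 15.4%) against 6.42%. TCACNCCAC, a form of the sterol response element, was in 0 of 26 windows against 1.12% of all. Each motif was searched on both strands and counted by itself, whether or not it overlapped another. The 33469 promoters were not limited to genes measured on the arrays, so these shares do not compare like with like. A match is a description of letters only, and the arrays do not show which start was used.

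The mevalonate branch, which makes the isoprenoid units, was described by Acat2 (thiolase), Mvk and Pmvk (the mevalonate kinases), Mvd (decarboxylase), Idi1 (isopentenyl diphosphate isomerase) and Fdps (farnesyl diphosphate synthase). Of these 6, 4 had a higher and 2 a lower mean in the exposed groups, with a median difference of 0.01 log2, beside 0.00217 over all probe sets, and none passed the test. Acat2, Mvk, Pmvk and Mvd differed by 0.01 to 0.03. Idi1 and Fdps had lower exposed means, by -0.11 each.

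Fdps, which joins isoprenoid units into farnesyl diphosphate, read 10.77 to 11.31 (median 10.90) on the 8 control arrays and 10.50 to 11.13 (median 10.82) on the 32 exposed arrays. Of the exposed arrays, 12 lay below the lowest control and none above the highest. The difference of -0.11 (SE 0.0476) had an unadjusted p of 0.0247 and a limma adjusted p of 0.533. The lowest group was females given 250 ppm perinatally, with 10.61, 10.51, 10.50 and 10.69 for Fdps, beside 10.91, 11.31, 10.78 and 10.89 in the arrays labelled female control. Those groups did not overlap. Fdps was one of 2 members, with Fads2, whose 4 exposed arrays all lay below the 4 controls in that comparison, as did 1.23% of all probe sets. The difference was -0.39 (SE 0.0851, limma adjusted p = 0.114, rank 12 of 29214 by p), and it did not pass the test. Without the 3 controls that Eif2s3 set against their label it was -0.52 (SE 0.0986, limma adjusted p = 0.0312), a call that rests on 2 female control arrays, one of which, at 11.31, was the highest Fdps value of all 40. In males of the same dose and window Fdps was 0.08 above controls, and in females given 750 ppm perinatally it was -0.08 from controls. The test of the sex difference in the lead effect over all exposures gave -0.18 for Fdps (SE 0.0951, limma adjusted p = 1).

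Idi1, which interconverts the 2 isoprenoid building blocks, read 8.05 to 8.26 (median 8.12) on control arrays and 7.43 to 8.39 (median 8.02) on exposed arrays. Of the 32 exposed arrays, 17 were below the lowest control and 2 above the highest. Males given 750 ppm perinatally read 7.43, 8.01, 7.94 and 7.80, all below the 4 male controls at 8.14, 8.07, 8.13 and 8.05. Idi1 was the 1 member below all controls in that comparison, as were 1.31% of all probe sets. The array at 7.43 is the flattened replicate 1. The difference was -0.30 (SE 0.106, limma adjusted p = 0.452). Over all exposed groups Idi1 differed by -0.11 (SE 0.0593, limma adjusted p = 0.722).

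The sterol branch runs from Fdft1 (squalene synthase), Sqle (squalene epoxidase) and Lss (lanosterol synthase) to the trimming enzymes Cyp51, Tm7sf2, Msmo1, Nsdhl, Hsd17b7, Ebp, Sc5d and Dhcr7, the last of which makes cholesterol. Of these 11, 7 had a higher and 4 a lower exposed mean, with a median difference of 0.01 and a range from -0.04 for Nsdhl to 0.07 for Lss. None passed the test, and none had an unadjusted p below 0.05. The Lss difference had a 95% interval from -0.01 to 0.15.

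Msmo1, a demethylase of sterols, read 10.90 to 11.15 (median 11.10) on control arrays and 10.85 to 11.25 (median 11.07) on exposed arrays. Its group means ran from 10.97 in males given 750 ppm perinatally to 11.15 in males given 750 ppm postnatally. The former read 10.85, 11.02, 11.02 and 11.00 and the latter 11.04, 11.17, 11.21 and 11.20. This pair was picked as the lowest and highest group means. The postnatal minus perinatal difference at 750 ppm in males was 0.18 for Msmo1 (SE 0.0537, limma adjusted p = 0.119). That comparison contains the flattened male 750 ppm perinatal replicate 1, the lowest of the 8 arrays, and its groups lie in different title ranges. In it, 19.4% of all probe sets had an unadjusted p below 0.05.

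Sc5d, the desaturase near the end of the pathway, read 11.50 to 11.59 (median 11.54) on control arrays and 11.21 to 11.67 (median 11.56) on exposed arrays. Of the 32 exposed arrays, 11 lay above the highest of the 8 controls and 9 below the lowest. More arrays reach a wider range by number alone, and the spread was not tested. Its lowest group was again males given 750 ppm perinatally, at 11.21, 11.53, 11.49 and 11.43, where replicate 1 is flattened. The difference from male controls was -0.11 for Sc5d (SE 0.0531, limma adjusted p = 0.607). Over all exposed groups it was 0.00454 (SE 0.0297).

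Among the regulators, Srebf2 (the main transcription factor of the synthesis genes), Scap, Insig1 and Insig2, the differences of exposed from control means were -0.01, 0.05, -0.02 and -0.02, and none passed the test. Srebf2 read 10.77 to 10.88 (median 10.82) on control arrays and 10.65 to 10.93 (median 10.82) on exposed arrays. Its lowest group was females given 250 ppm perinatally, at 10.84, 10.76, 10.65 and 10.76, and its highest was females given 750 ppm perinatally, at 10.87, 10.90, 10.89 and 10.86. The 750 minus 250 ppm difference between these groups was 0.13 for Srebf2 (SE 0.0402, limma adjusted p = 0.327). They were picked as its lowest and highest group means and lie in different title ranges, so dose and range cannot be told apart. Insig1, a target of SREBP as well as its retention partner, read 10.56 to 10.88 (median 10.74) on control arrays and 10.41 to 10.91 (median 10.73) on exposed arrays. Over all exposed groups the postnatal mean of Insig1 was higher than the perinatal mean by 0.09 (SE 0.0363, limma adjusted p = 0.32).

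The fatty acid enzymes Fasn (fatty acid synthase), Scd (stearoyl-CoA desaturase), Fads1 and Fads2 (desaturases of polyunsaturated fatty acids) differed by 0.03, 0.01, 0.02 and -0.02 between exposed and control means, and none passed the test. Fads1 read 11.62 to 11.78 (median 11.72) on control arrays and 11.56 to 11.87 (median 11.73) on exposed arrays. In males given lead perinatally, 250 ppm gave 11.79, 11.78, 11.76 and 11.86 for Fads1 and 750 ppm gave 11.56, 11.70, 11.60 and 11.67. These groups had its highest and lowest mean, lie in different title ranges and both contain flattened arrays. The difference was -0.16 (SE 0.0469, limma adjusted p = 0.35), and over both windows and sexes it was -0.08 (SE 0.0235, limma adjusted p = 0.274). Fads2 read 11.47 to 11.58 (median 11.50) on control arrays and 11.35 to 11.59 (median 11.49) on exposed arrays. Its lowest group was females given 250 ppm perinatally, at 11.46, 11.45, 11.35 and 11.48 beside 11.49, 11.58, 11.54 and 11.49 in female controls. The difference was -0.09 for Fads2 (SE 0.0323, limma adjusted p = 0.654).

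Genes of transport and removal stood at a median difference of 0.05, with 6 of 8 higher and 2 lower. These are Stard4 (a carrier of cholesterol between membranes), Soat1 (cholesterol esterification), Npc1 and Npc2 (lysosomal export), Lpl (hydrolysis of lipoprotein fat), Abca1 and Abcg1 (efflux) and Cyp46a1 (24-hydroxylation). Of these, Npc1 alone passed the test. Soat1, Stard4 and Abcg1 differed by 0.09, 0.07 and 0.06, with limma adjusted p-values of 0.436, 0.663 and 0.683. Npc2, the soluble partner that hands cholesterol to NPC1, differed by -0.06 (SE 0.0489, limma adjusted p = 0.901). Lpl differed by -0.10 (SE 0.0665, limma adjusted p = 0.818). Cyp46a1, made by neurons, differed by 0.00713 (SE 0.0268).

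Npc1 (probe set 10803238) read 9.84, 9.74, 9.75 and 9.84 in the arrays labelled male control and 9.92, 9.94, 9.92 and 9.74 in those labelled female control. Males given 250 ppm read 9.96, 10.10, 9.96 and 9.97 after perinatal and 9.83, 9.97, 10.13 and 10.18 after postnatal exposure. Males given 750 ppm read 9.84, 9.90, 9.91 and 9.97 after perinatal and 10.02, 10.07, 10.05 and 10.14 after postnatal exposure. All 4 exposed male means were above the male control mean, and the perinatal 250 ppm and postnatal 750 ppm groups did not overlap the male controls. Females given 250 ppm read 10.05, 10.14, 10.16 and 10.24 after perinatal and 10.02, 10.20, 10.00 and 9.88 after postnatal exposure. Females given 750 ppm read 10.11, 10.15, 9.93 and 10.07 after perinatal and 9.99, 10.06, 10.16 and 10.09 after postnatal exposure. The female 250 ppm perinatal and 750 ppm postnatal groups did not overlap the female controls. The shares of all probe sets whose 4 exposed arrays lay above all 4 controls were 1.64% and 2.42% in those male comparisons and 2.13% and 1.55% in those female ones.

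**Figure D1:**
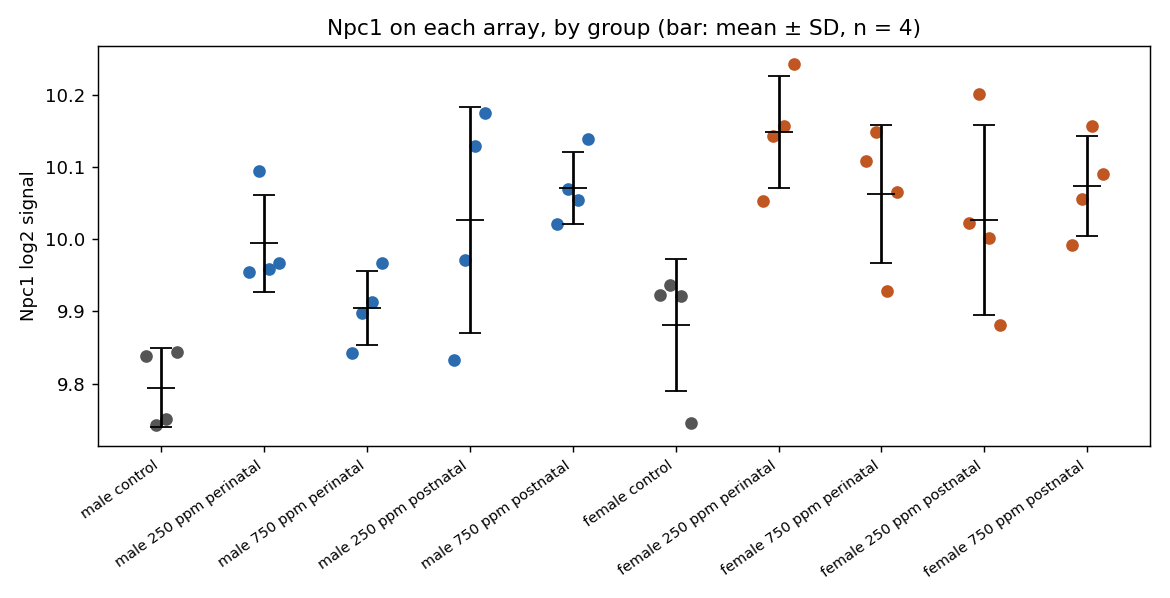
Npc1 log2 signal on each of the 40 arrays (points), by group, with the group mean and SD (n = 4). Control arrays are grey, exposed males blue and exposed females orange. The 8 control arrays lie between 9.74 and 9.94, and 26 of the 32 exposed arrays lie above the highest of them.

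In the comparison of all exposed with all control groups, 1 of the 33 members was called, where 0.38% of all probe sets were. Npc1 controls ranged from 9.74 to 9.94 (median 9.84) and exposed arrays from 9.83 to 10.24 (median 10.05). The ranges overlap, with 26 of 32 exposed arrays above the highest control, 31 above the control median and none below the lowest control. The difference of 0.20 had a 95% interval from 0.13 to 0.27 and a limma adjusted p of 0.00386, rank 16 of 29214 by p. The test of any difference among the 10 groups called Npc1 (limma adjusted p = 0.0192) and no other member, where 0.654% of all probe sets were called. That call was lost without the 3 flattened arrays (limma adjusted p = 0.0504), without male control replicate 2 (limma adjusted p = 0.0587) and without male control replicate 3 (limma adjusted p = 0.0593). Without the 3 controls that Eif2s3 set against their label the exposed minus control difference of Npc1 was 0.23 (SE 0.0452, limma adjusted p = 0.0281). Within title numbers 1970 to 1981 only the females given 750 ppm perinatally can be set against controls, and against both control groups, so females against controls of both sex labels, Npc1 differed there by 0.23 (SE 0.0501, limma adjusted p = 0.114). Against female controls alone, in a fit of these arrays, it differed by 0.18 (SE 0.0578, limma adjusted p = 0.568). Neither passed the test.

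No single exposure called any member. Npc1 was higher than controls of its sex label in all 8, from 0.11 in males given 750 ppm perinatally to 0.28 in males given 750 ppm postnatally, with limma adjusted p-values from 0.129 to 1 and unadjusted p-values below 0.05 in 7. By limma, 0 of 33 members were called in each exposure of males, where 0.089% (250 ppm perinatal), 0.0582% (750 ppm perinatal), 0.0342% (250 ppm postnatal) and 0.0445% (750 ppm postnatal) of all probe sets were. At an unadjusted p below 0.05 the members numbered 2, 2, 4 and 5, where 7.11%, 7.77%, 6.03% and 9.51% of all probe sets were below it. In females 0 of 33 were called, where 0.0171%, 0.157%, 0.0171% and 0.0137% of all probe sets were in the same order, and 4, 1, 2 and 2 members had an unadjusted p below 0.05, where 5.6%, 5.81%, 3.64% and 3.58% of all probe sets did. In males, in the same order, 1 (Npc1), 0, 0 and 3 (Ebp, Soat1 and Npc1) members had all exposed arrays above all controls, beside 1.64%, 2.27%, 1.49% and 2.42% of all probe sets. In females these were 1 (Npc1), 0, 0 and 1 (Npc1), beside 2.13%, 2.58%, 1.37% and 1.55%. Members with all exposed arrays below all controls were 0, 1 (Idi1), 0 and 0 in males, beside 1.02%, 1.31%, 1.61% and 2.71%. In females they were 2 (Fdps and Fads2), 0, 0 and 1 (Msmo1), beside 1.23%, 1.42%, 0.928% and 0.897%. The comparisons within a sex share their control arrays.

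**Figure D2:**
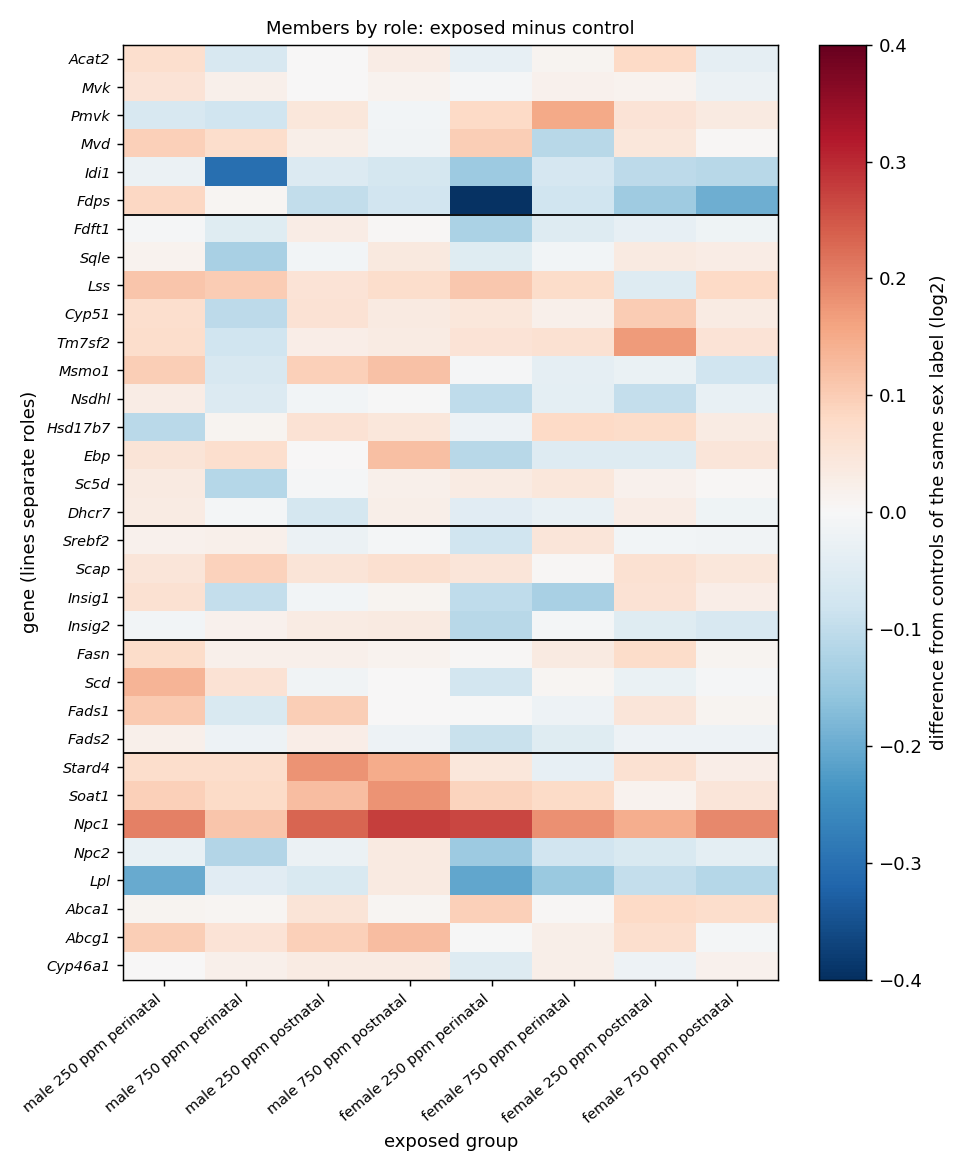
Difference of each exposed group from the controls of the same sex label (log2, colour) for the 33 members (vertical axis, lines separate roles) in 8 exposed groups (horizontal axis). Npc1 is above 0 in all 8 columns, from 0.11 to 0.28, and the lowest value is -0.39, for Fdps in females given 250 ppm perinatally.

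Pooled over dose and window, Npc1 was higher in exposed males by 0.21 (SE 0.0502, limma adjusted p = 0.145) and in exposed females by 0.20 (SE 0.0502, limma adjusted p = 0.365). By limma, 0 members were called in either, where 0.0445% and 0.024% of all probe sets were, and 4 and 2 members had an unadjusted p below 0.05, where 6.62% and 4.19% of all probe sets did. In males those were Npc1, Soat1, Stard4 and Abcg1, all higher, by 0.09 to 0.21. In females they were Npc1 and Fdps, in opposite directions. The sex difference in the lead effect on Npc1 was -0.01 (SE 0.0711), with a 95% interval from -0.15 to 0.14. By limma this test called 0 members and 0% of all probe sets, with 0 members and 759 probe sets (2.6%) at an unadjusted p below 0.05.

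Dose and window gave no call among the members either, and both comparisons set some groups against groups of another title range. For 750 against 250 ppm limma called 0 of 33 (0.0856% of all probe sets), with Fads1, Cyp51, Mvd and Msmo1 at an unadjusted p below 0.05 (7.31% of all probe sets), all lower at 750 ppm by -0.08 to -0.06. All 11 myelin markers had a lower mean at 750 ppm too (mean difference -0.108, none called, 9 at an unadjusted p below 0.05), and their part in these member values was not tested. Npc1 differed by -0.02 with dose (SE 0.0318, 95% interval from -0.09 to 0.04). For postnatal against perinatal exposure limma called 0 of 33 (0.065% of all probe sets), with Insig1 and Stard4 at an unadjusted p below 0.05 (12.6% of all probe sets). Npc1 differed by 0.02 with window (SE 0.0318, 95% interval from -0.04 to 0.09). Between exposed females and exposed males limma called 0 of 33 (0.0924% of all probe sets), with 3 at an unadjusted p below 0.05 (13.4% of all probe sets), and Npc1 was higher in females by 0.08 (SE 0.0318, limma adjusted p = 0.285).

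Males given 750 rather than 250 ppm perinatally had lower means for 25 of 33 members, including all 6 of the mevalonate branch, with a median of -0.04, beside 0.01 over all probe sets, of which 46.6% were lower. Limma called 0 members (0.0411% of all probe sets), and Idi1, Cyp51, Msmo1, Sc5d, Insig1 and Fads1 had an unadjusted p below 0.05, as did 5.15% of all probe sets. In the same comparison 25 of the 33 other pathway genes had lower means (median -0.0462, none called), as did all 11 myelin markers (mean difference -0.193, none called, 6 at an unadjusted p below 0.05). All 3 flattened arrays are in these 2 groups. Without them 28 of 33 members had lower means (median -0.06, 44.1% of all probe sets lower). Idi1, Cyp51, Msmo1, Sc5d and Fads1 then had an unadjusted p below 0.05, as did 7.9% of all probe sets, with 0 called. That fit left only replicates 2 and 4 at 250 ppm. Replicate 2 was the array farthest from the rest in the synthesis genes, so these values lean on it. The groups lie in different title ranges, so dose and range cannot be told apart here, and the part of the myelin markers was not tested. In the other sex and window pairs of 750 against 250 ppm, limma again called 0 members, where 0.0103% (male postnatal), 0.0856% (female perinatal) and 0% (female postnatal) of all probe sets were called. At an unadjusted p below 0.05 there were 1 (Fads1, lower), 3 (Fdps and Srebf2 higher, Mvd lower) and 0 members, where 3.82%, 8.02% and 3.66% of all probe sets were below it. The female perinatal groups also lie in different title ranges, while both postnatal pairs lie within 2821 to 2876.

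Split by sex and dose, postnatal against perinatal exposure called 0 members by limma in each of the 4 pairs, where 0.00342% (male 250 ppm), 0.175% (male 750 ppm), 0.0103% (female 250 ppm) and 0.0548% (female 750 ppm) of all probe sets were called. Members at an unadjusted p below 0.05 numbered 3, 5, 4 and 1, where 6.36%, 19.4%, 5.98% and 5.07% of all probe sets were below it. At 750 ppm in males the 5 were Msmo1, Npc1, Cyp51, Sc5d and Idi1, all with a higher postnatal mean, by 0.13 to 0.23. Without the flattened male 750 ppm perinatal replicate 1 only Msmo1 and Npc1 were below it, and the probe sets called fell from 51 to 15. Markers of some other cells moved in the same comparison, with higher postnatal means for 11 of 11 of myelin (none called), 7 of 7 of microglia (1 called), 4 of 4 of red blood cells (1 called) and 6 of 6 of choroid plexus (mean difference 1.47, none called). Endothelial markers were higher in 5 of 5 (none called). Astrocyte markers were higher in 3 and lower in 5, and neuronal markers higher in 5 and lower in 5 (none called). The part of these markers in the member values was not tested. Insig1, the retention partner of SCAP, had a higher postnatal mean in both female pairs, by 0.16 each (limma adjusted p = 0.776 and 0.945).

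The intervals bound the difference between exposed and control group means, for each member by itself. Most exposed groups lie in another title range than the controls, so the intervals do not bound an effect of lead alone. In the comparison of all exposed with all controls, the 95% interval lay within 0.15 log2 of 0 (a change of up to 11% upwards) for 27 of 33 members, within 0.25 (18.9%) for 32 and within 0.30 (23.1%) for all 33. Without the 3 controls that Eif2s3 set against their label these counts were 22, 29 and 30, with Fdps, Npc1 and Lpl beyond 0.30 on 1 side. Fdps was then -0.19 (SE 0.0557, limma adjusted p = 0.205), Lpl -0.14 (SE 0.0845, limma adjusted p = 0.73) and Npc2 -0.12 (SE 0.0595, limma adjusted p = 0.635). Over members, 21 had a higher and 12 a lower exposed mean, with a median of 0.01. At an unadjusted p below 0.05 there were 3 (Npc1, Soat1 and Fdps), 2 higher and 1 lower, where 7.66% of all probe sets were. The single exposures were less precise, with a median SE of 0.0635 and between 28 and 32 members within 0.30.

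**Figure D3:**
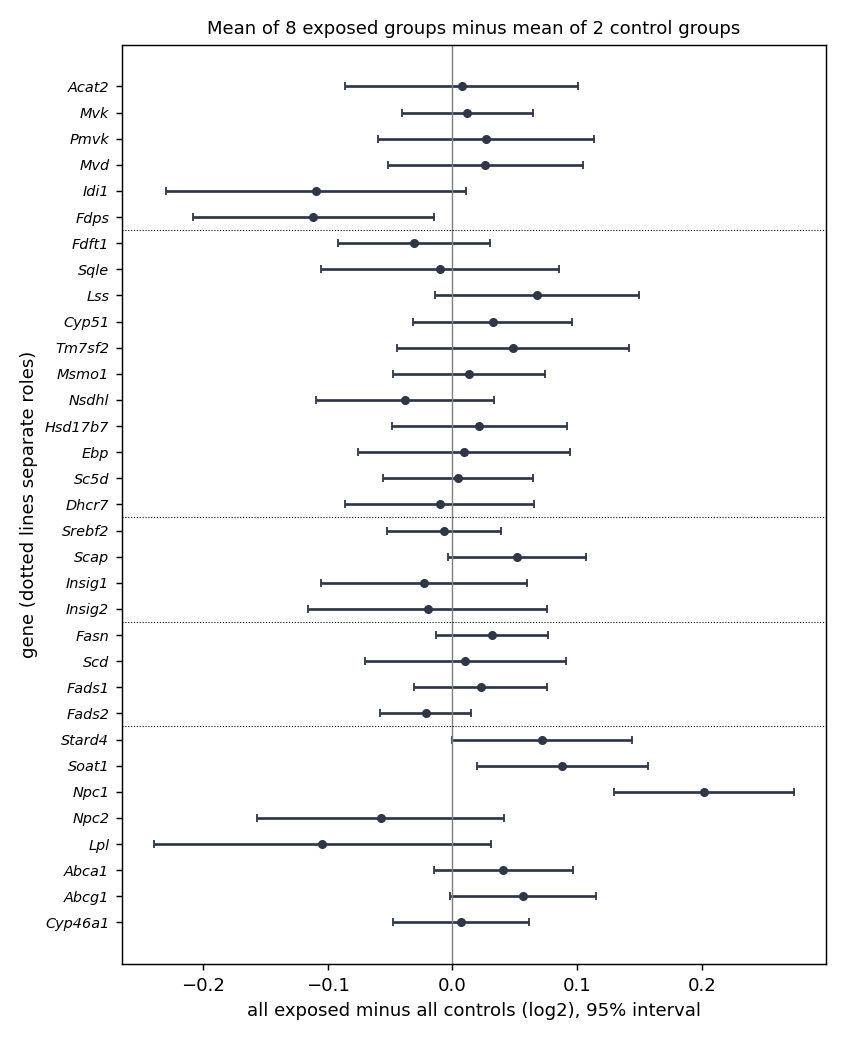
Mean of the 8 exposed groups minus mean of the 2 control groups (log2, points) with 95% intervals (bars) for the 33 members, in order of role. The interval of Npc1 runs from 0.13 to 0.27, and 27 of the 33 intervals lie within 0.15 of 0.

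Other genes of these pathways, from a list of 41 of which 33 were measured, gave 0 calls in any contrast or in the test among groups. In all exposed against all controls limma gave 22 higher and 11 lower, a median of 0.02 and 4 at an unadjusted p below 0.05, beside 51.7% higher, 0.38% called and 7.66% at that p over all probe sets.

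Within groups, Npc1 covaried with markers of oligodendrocytes and myelin, and between groups both differed from controls. Of 13 such markers 11 were measured, all 11 had a higher mean in the exposed groups (mean difference 0.185) and 5 were called, among them Mag, Mog and Cldn11. Their summed level, as a mean over the 11, was 10.96 to 11.07 on control arrays and 10.98 to 11.44 on exposed arrays, and the dimmest marker, Aspa, had a mean of 8.74. In females given 750 ppm postnatally the markers differed from controls by 0.0536 on average. By limma 0 were called and 0 had an unadjusted p below 0.05, and Npc1 differed there by 0.19. In females given 250 ppm perinatally the markers differed by 0.28 and Npc1 by 0.27. In males given 750 ppm perinatally the markers differed by 0.0873 and Npc1 by 0.11. With dose the markers differed by -0.108 and Npc1 by -0.02 (SE 0.0318), and how these amounts relate was not tested. All 5 measured markers of oligodendrocyte precursors had a higher exposed mean, 2 of them called. In whole tissue, more cells of a type and more RNA per cell cannot be told apart. All 8 measured astrocyte markers had a higher exposed mean as well (mean difference 0.0363), with 0 called by limma and 1 at an unadjusted p below 0.05. The 10 activity-regulated neuronal genes all had a lower exposed mean, 5 of them called.

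With group means removed, Npc1 and the mean of the 11 myelin markers correlated over the 40 arrays at Pearson's r = 0.792 and Spearman's rho = 0.807 (permutation p = 2e-05 for each, 100000 permutations within groups). Without the 2 arrays farthest from the median of the marker mean r was 0.763, without the flattened arrays 0.791, among the 32 exposed arrays 0.831 and among the 8 controls 0.534. In limma's fit of every probe set on the marker mean, Npc1 had a slope of 0.649 (SE 0.0999, adjusted p = 0.000114). It was the only 1 of 33 members called, where 0.76% of all probe sets were called as rising with the markers and 0.517% as falling. Outside the markers, 27 probe sets, Npc1 among them, had an r of at least that of Npc1, beside a 95th percentile of 0.336 over all probe sets and 0.583 to 0.92 for the markers themselves, each of which is part of the mean. The next members were Cyp51 at 0.412, Lss at 0.35, Scd at 0.319 and Msmo1 at 0.309, none of them called. With the marker mean as a covariate, chosen after seeing the data, the exposed minus control difference of Npc1 was 0.08 (SE 0.0303, limma adjusted p = 0.531), and 15 probe sets were called in all. The precursor, astrocyte and neuronal genes' part in the Npc1 result was not tested.

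**Figure D4:**
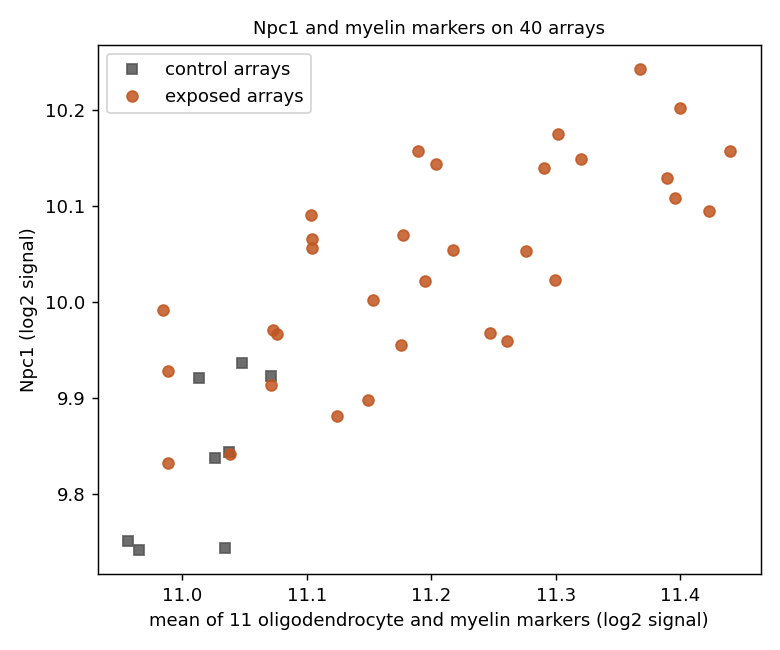
Npc1 log2 signal (vertical axis) against the mean log2 signal of 11 oligodendrocyte and myelin markers (horizontal axis) on 40 arrays, with controls as grey squares and exposed arrays as orange circles. Controls sit between 10.96 and 11.07 on the horizontal axis and exposed arrays between 10.98 and 11.44, and Npc1 rises along it.

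Of the 6 genes nearest to Npc1 in RefSeq order, 3 had a probe set of their own and none of these was called. Tmem241, Rmc1 and Ankrd29, the last 2 being its direct neighbours, were not analysed here. Riok3, Lama3 and Ttc39c differed by -0.03, -0.06 and 0.02 between exposed and control means, with limma adjusted p-values of 0.957, 0.982 and 0.98.

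The synthesis enzymes, although none was called, tended to vary together from array to array within groups, though not all pairs did. With group means removed, the 17 genes of the mevalonate and sterol branches had a median pairwise r of 0.316 over the 40 arrays, beside 0.015 over all pairs of 14506 genes, and 21.3% of their 136 pairs exceeded 0.5, beside 3.19%. Among all measured members the closest pairs were Idi1 with Sc5d (0.839), Idi1 with Sqle (0.775), Acat2 with Sqle (0.773) and Sc5d with Insig2 (0.749). Some genes of other roles were thus as close, as was Cyp46a1 with Acat2 (0.714), while Scap with Sc5d gave -0.523. Within the 17 genes the lowest pair was Mvd with Msmo1 (-0.338). The pairs of all genes were not matched for signal. Without the flattened arrays the median over the 17 genes was 0.297. Without the array farthest from the rest in these genes, male 250 ppm perinatal replicate 2, it was 0.218. The 8 genes of transport and removal had a median r of 0.0382, and Npc1 was closest to Cyp51 (0.479) and Scd (0.404) among the members. These pairs share the arrays, so the values are a description of these 40 samples.

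**Figure D5:**
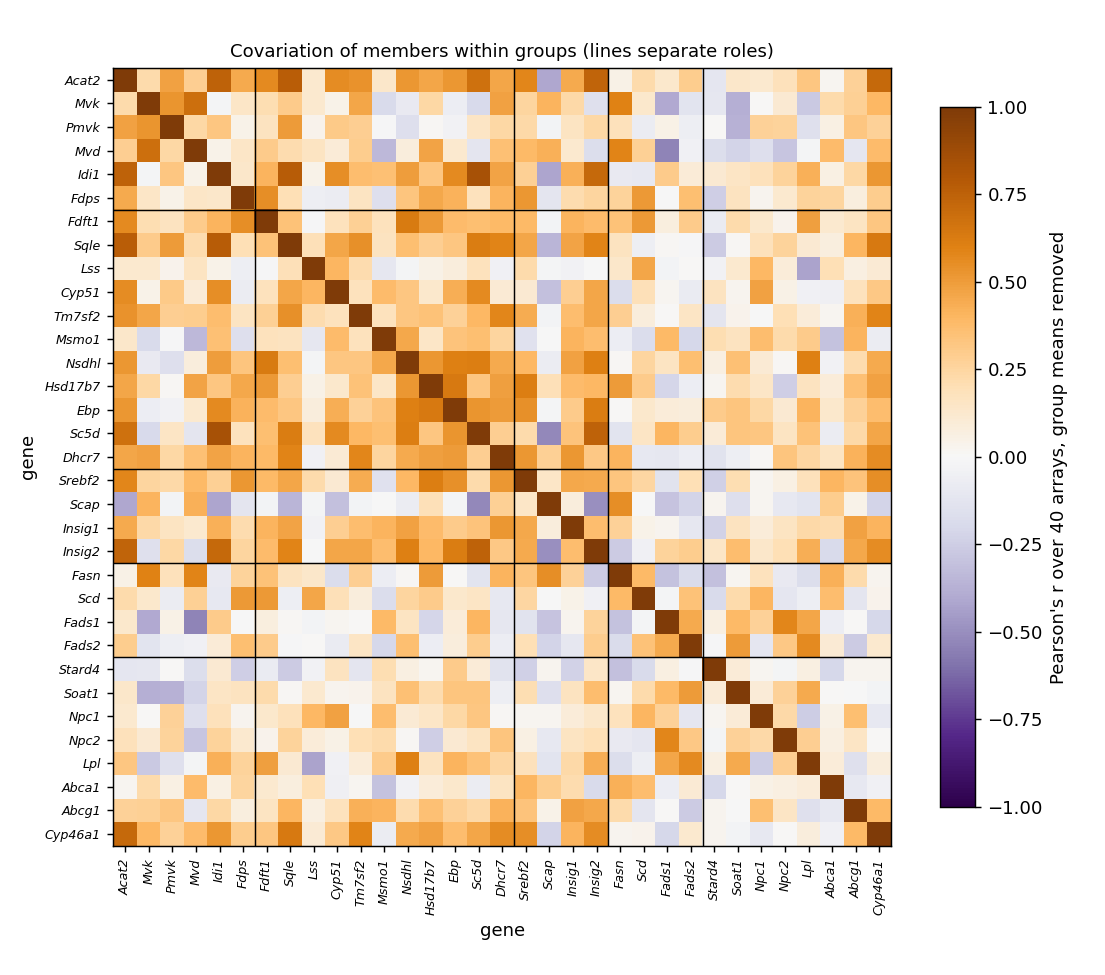
Pearson's r between each pair of the 33 members over 40 arrays with group means removed (colour), in order of role, with lines between roles. Idi1 and Sc5d give the highest value, 0.839, and the median over the mevalonate and sterol branches is 0.316.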

How the data were processed

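Each of 40 arrays held 1 hippocampal RNA sample (100 ng). The values are log2 signals per probe set as deposited by the authors. Per the submitters' processing notes, RMA (background correction, equal array distributions, probes summarised into probe sets) and Partek were used. Their versions and settings are not given in the sources used here. RMA compresses low signals, so small log2 differences of dim probe sets are understated. Array medians were 6.96 to 7.06.

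Groups came from the labels. A limma model (limma 3.58.1, R 4.3.3) with 10 group means was fitted to 29214 probe sets with moderation and a variance trend. Two-sided p-values were adjusted by Benjamini-Hochberg per contrast, and a call is an adjusted p under 0.05. Gene symbols came from GEO's platform annotation, with 15310 probe sets of 1 symbol, 323 of several and 13581 of none. All measured members are named. Single-array values are given for each called member and, in roles without one, for the 2 of smallest p among groups. Alternatives were array weights, quantile normalization, no trend, robust moderation, leaving out the dimmest 40% of probe sets, averaging probe sets, and leaving out arrays. The members, lists and tests were chosen with earlier results of these data known. The fits were tested on simulated data, where the share of false calls exceeded the nominal share in some draws and not in others.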

Additional observations from a re-analysis of the deposited data

Results flagged for a closer look

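Among 90 sets of 4 arrays (9 members in 10 groups), 5 had 1 array far from the other 3, and chance gives about 1 in 20. Npc1 read 10.1 on male 250 ppm perinatal replicate 2, above the 9.955 to 9.968 of the others, and that array also had the highest myelin marker mean of its group, 11.42. Npc1 read 9.745 on female control replicate 4, below the 9.921 to 9.937 of the others, and without that array the exposed minus control difference was 0.18 (limma adjusted p = 0.0228). Msmo1 read 10.85 on male 750 ppm perinatal replicate 1, a flattened array, below 11.0 to 11.02. Insig1 read 10.54 on male 250 ppm postnatal replicate 1, below 10.76 to 10.8. Srebf2 read 10.88 on female control replicate 2, above the other 3 at 10.82.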

How the results depend on the processing

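The exposed minus control difference of Npc1 stayed called under each alternative planned at the start, from 0.1786 to 0.2107 when single arrays were left out (limma adjusted p from 8e-04 to 0.0228, the highest without female control replicate 4), and was 0.23 without the 3 controls that Eif2s3 set against their label. Among alternatives chosen after seeing the data it stayed called at 0.1976 with array slope as a covariate, was 0.0812 (limma adjusted p = 0.531) with the myelin marker mean as a covariate, and was 0.2255 (limma adjusted p = 0.114) within the lowest title range, where only females are set against controls of both sex labels (0.1817, limma adjusted p = 0.568, against female controls alone). The myelin covariate and the lowest title range left 0 members called. Without these 3 controls 1 member, Fdps, was called in females given 250 ppm perinatally. The test among the 10 groups called 0 members without the flattened arrays, and 0 to 1 when single arrays were left out, 0 without male control replicate 2 or 3. The other 498 counts or Npc1 values under alternatives stayed within the same call. The number of arrays and their signal limit what could be seen. No paired analysis was possible because the labels give no replicate numbers that groups share.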
